A study of Homo sapiens with 6 samples.

Results

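Transcripts of 9 human genes for danger signals and immune ligands were described in HT-29 tumour xenografts 4 h after modulated electro-hyperthermia. They were HMGB1, HMGB2 and HMGB3, which encode high mobility group box proteins, MICA, MICB, ULBP1 and ULBP2, which encode ligands of the receptor NKG2D, CD47, and NT5E, which encodes CD73. Every probe set whose platform annotation named 1 of these genes was taken, whatever its values, which gave 26 of the 54675 probe sets on the array. Of these, 25 named a single gene and 1 was shared by MICA and MICB.

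HT-29 is an established human colorectal adenocarcinoma line, and 0.1 ml of its suspension was injected into both femoral regions of Balb/c (nu/nu) mice aged 6 to 8 weeks. Nude mice lack mature T cells but keep natural killer cells and macrophages. Each group was 1 pool of RNA from dissected frozen sections, hybridised to 2 arrays that the labels call technical replicates. The treated pool came from tumours heated for 30 min by an electromagnetic field on day 18 and taken 4 h later. The opposite-side pool came from the untreated tumours of those treated animals, and the control pool from control xenografts. The labels used here do not give the number of animals in a pool, or whether controls were handled as if treated.

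HMGB1 is a chromatin protein that bends DNA inside the nucleus and acts as an alarm signal for innate immune cells once it is released, through TLR4 and RAGE. NKG2D ligands are surface proteins that stressed or transformed cells display and that natural killer cells recognise. CD47 on a cell binds SIRPA on macrophages and restrains phagocytosis, and CD73 makes adenosine, which dampens immune responses. HMGB1, calreticulin and HSP70 are known as danger signals chiefly through their release or exposure as proteins. The arrays measured RNA only and hold nothing on protein level, release or surface display.

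Promoters of MICA, MICB, ULBP2 and CD47 are shown first. Heat-inducible genes are bound by heat shock factor at inverted GAA units, and MICA and MICB are known to carry such elements. The windows are those of RefSeq on GRCh38.p14, from 250 bases before to 50 after the annotated gene start, written 5′ to 3′ on the gene's strand. Capitals mark each match to GAANNTTC or TTCNNGAA, both of which read the same on either strand and can overlap. MICA lies at chr6:31403345-31403644 (plus strand), MICB at chr6:31497895-31498194 (plus strand), ULBP2 at chr6:149941764-149942063 (plus strand) and CD47 at chr3:108090982-108091281 (minus strand).
MICA: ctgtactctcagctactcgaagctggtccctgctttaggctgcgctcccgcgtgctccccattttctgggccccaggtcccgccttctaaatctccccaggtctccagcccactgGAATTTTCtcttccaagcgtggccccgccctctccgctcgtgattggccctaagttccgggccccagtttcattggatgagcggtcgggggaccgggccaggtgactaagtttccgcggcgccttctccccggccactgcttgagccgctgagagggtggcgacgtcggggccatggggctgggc
MICB: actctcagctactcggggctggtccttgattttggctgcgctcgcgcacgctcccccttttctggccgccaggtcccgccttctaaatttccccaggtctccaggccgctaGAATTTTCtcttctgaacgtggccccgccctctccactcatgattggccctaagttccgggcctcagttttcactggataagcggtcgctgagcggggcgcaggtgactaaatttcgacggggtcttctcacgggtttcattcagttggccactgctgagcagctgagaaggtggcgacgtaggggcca
ULBP2: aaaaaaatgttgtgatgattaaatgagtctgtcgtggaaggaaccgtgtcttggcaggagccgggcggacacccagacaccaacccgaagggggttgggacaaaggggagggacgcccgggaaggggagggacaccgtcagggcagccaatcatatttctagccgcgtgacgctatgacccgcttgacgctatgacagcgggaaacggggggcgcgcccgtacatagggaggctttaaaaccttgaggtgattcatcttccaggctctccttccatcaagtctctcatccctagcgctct
CD47: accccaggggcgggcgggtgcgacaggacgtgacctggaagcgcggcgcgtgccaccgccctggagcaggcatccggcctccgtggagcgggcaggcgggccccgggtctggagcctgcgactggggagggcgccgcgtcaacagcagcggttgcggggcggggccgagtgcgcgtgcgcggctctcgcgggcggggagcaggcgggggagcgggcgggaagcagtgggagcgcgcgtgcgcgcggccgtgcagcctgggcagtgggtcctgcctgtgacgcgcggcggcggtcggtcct
The MICA and MICB windows each held 1 match, with the same letters, with the first base at -135 from the gene start in MICA and at -139 in MICB. Neither of the other windows printed here held one, nor did the window of ULBP1, which is not printed. Of the 9 genes, 8 were found in the table, with 11 windows because HMGB1 and HMGB3 have several starts, and 3 windows held a match: MICA, MICB and 1 of the HMGB1 windows. Such a match occurred in 13.5% of all 35116 promoter windows of the table, and 3 units in a row in 0.49% and in 0 of the 11. These are letter matches only, and no match says nothing about other positions.

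Levels are the deposited values on the log2 scale, and the lowest value of the table, 2.37 on every array, is its floor. A probe set is called detected in a comparison when both arrays of at least 1 of its pools lay at or above 5. The size rule, by which a probe set was called different, asked for a gap of 1 or more between pool means (2-fold), the same sign in each of the 4 array pairs, and a higher pool that reached 5 on both arrays. With 1 pool per group there is no test between conditions, and every SD is that of 2 technical arrays. Levels of different probe sets are not compared, since probes differ in their response. In bulk RNA, fewer cells of a type and less RNA per cell cannot be told apart.

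Of the 26 probe sets, 17 reached 5 on both arrays of a pool and 9 lay below 5 on all 6 arrays. Those 17 covered all 5 HMGB1 probe sets, 5 of 7 for CD47, 2 of 4 for NT5E, and 1 each of the 2 for HMGB2, HMGB3 and ULBP2. For MICA both its own probe set and the one shared with MICB reached 5. MICB's own probe set stayed at 2.37 on the opposite-side and control arrays and at 2.40 and 2.50 on the treated arrays. ULBP1 and the second HMGB2 probe set lay at the floor of 2.37 on all 6 arrays.

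**Figure D1:**
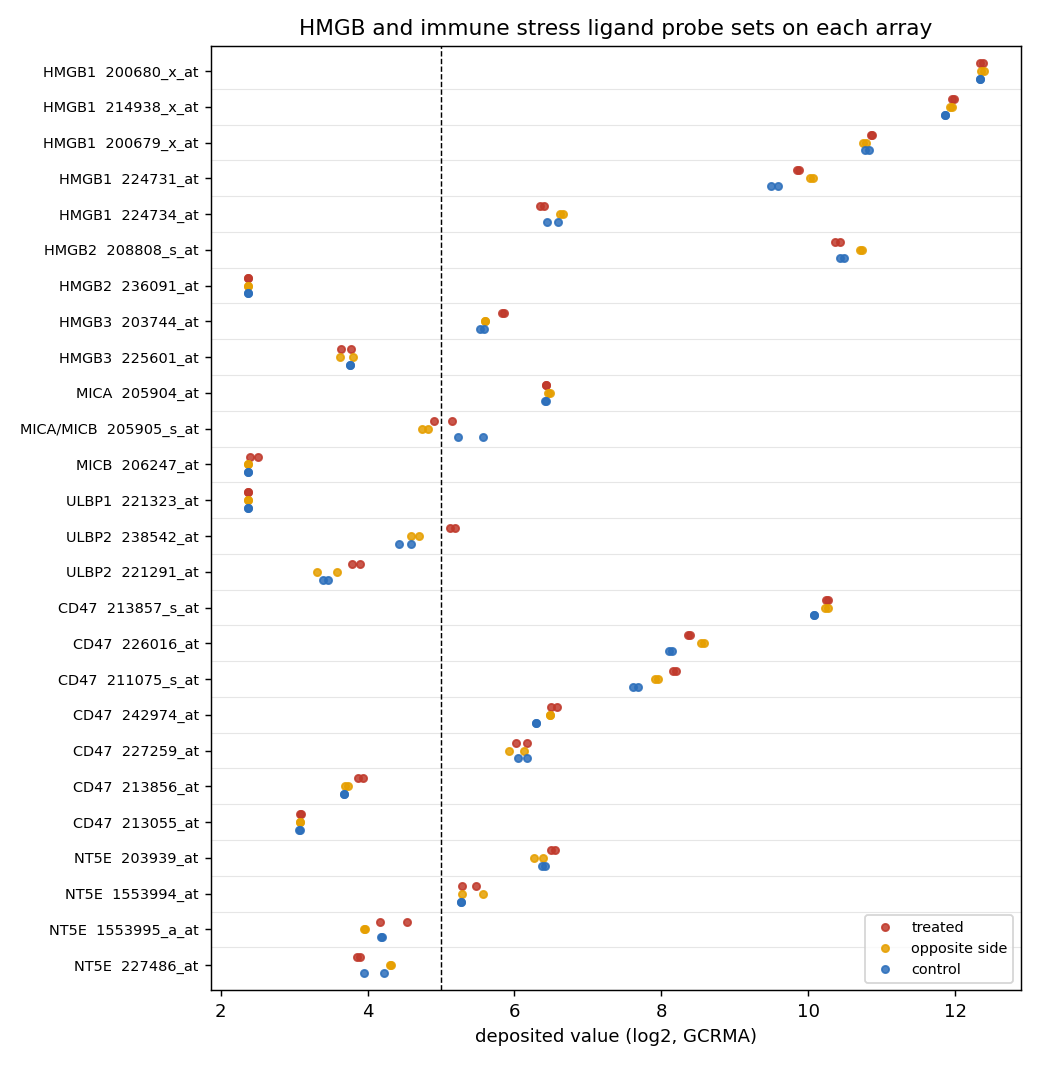
Deposited values (log2, horizontal axis) of the 26 probe sets on the 6 arrays, with treated arrays in red, opposite-side arrays in orange and control arrays in blue, and the detection level of 5 as a dashed line. Pools of a probe set lie close together, 17 probe sets reach 5 in some pool, and ULBP1 stands at the floor of 2.37 throughout.

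No probe set of the 9 genes passed the size rule in any comparison. In treated minus control this was 0 of 17 detected probe sets, where 1.03% of all 12560 detected probe sets passed. In treated minus opposite side it was 0 of 16, against 0.458% of 12438, and in opposite side minus control 0 of 16, against 0.599% of 12517. At these shares a group of this size would hold few calls or none, so the count of 0 does not set the genes apart from the array as a whole.

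The arrays of a pool agreed closely, with a median absolute difference of 0.048 to 0.057 over all detected probe sets, so differences below the size rule are given as well. For these, the pools were read as not overlapping when both arrays of one lay above both of the other, and a smaller step of 0.5 (1.41-fold) was counted beside it. Many probe sets fail to overlap with 2 arrays a pool. In treated minus control 11 of 17 member probe sets lay above control and 3 below, where 34.1% and 41.2% of all did. In treated minus opposite side 7 of 16 lay above and 5 below, against 36.7% and 34.9%. In opposite side minus control 12 of 16 lay above and 1 below, against 34.2% and 41.4%.

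Past 0.5 the counts were small. In treated minus control 2 member probe sets were higher, of CD47 (211075_s_at) and ULBP2, and 0 lower, where 4.23% and 4% of all were. In treated minus opposite side 1 was higher, of ULBP2, and 0 lower, against 3.82% and 2.58%. In opposite side minus control 1 was higher, of HMGB1, and 1 lower, the MICA and MICB probe set, against 2.81% and 4.83%. The ULBP2 probe set and the one of MICA and MICB entered through 1 pool while the lower pool lay below 5, and against 5 they came to 1.11-fold and 1.32-fold, both short of 1.41-fold. Both treated minus control calls stayed past 0.5 with any 1 array left out and under the other scalings. The range was 0.57 to 0.73 for ULBP2 and 0.501 to 0.568 for CD47 211075_s_at. The calls in the other comparisons did not hold with every array left out or under every scaling. Without treated replicate 2 or opposite-side replicate 2, ULBP2 fell to 0.47 and 0.46 in treated minus opposite side. Without opposite-side replicate 2 or control replicate 2, HMGB1 224731_at fell to 0.48 and 0.46 in opposite side minus control, and without control replicate 1 the MICA and MICB probe set stood at -0.45. Under the spike-in scaling the MICA and MICB probe set stood at -0.38 in that comparison, and ULBP2 at 0.29 in treated minus opposite side. Equal array medians gave 0.49 for ULBP2 in treated minus opposite side. Quantile normalization gave 0.49 for ULBP2 in that comparison and for HMGB1 224731_at in opposite side minus control. Over member probe sets whose mean reached 5 in either pool, the median difference was 0.11 in treated minus control (17 probe sets, all probe sets -0.02). It was 0.03 in treated minus opposite side (17, all 0.0035) and 0.10 in opposite side minus control (16, all -0.02). Probe sets of 1 gene share a transcript, so these counts are not of independent genes, and the comparisons share pools with each other.

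**Figure D2:**
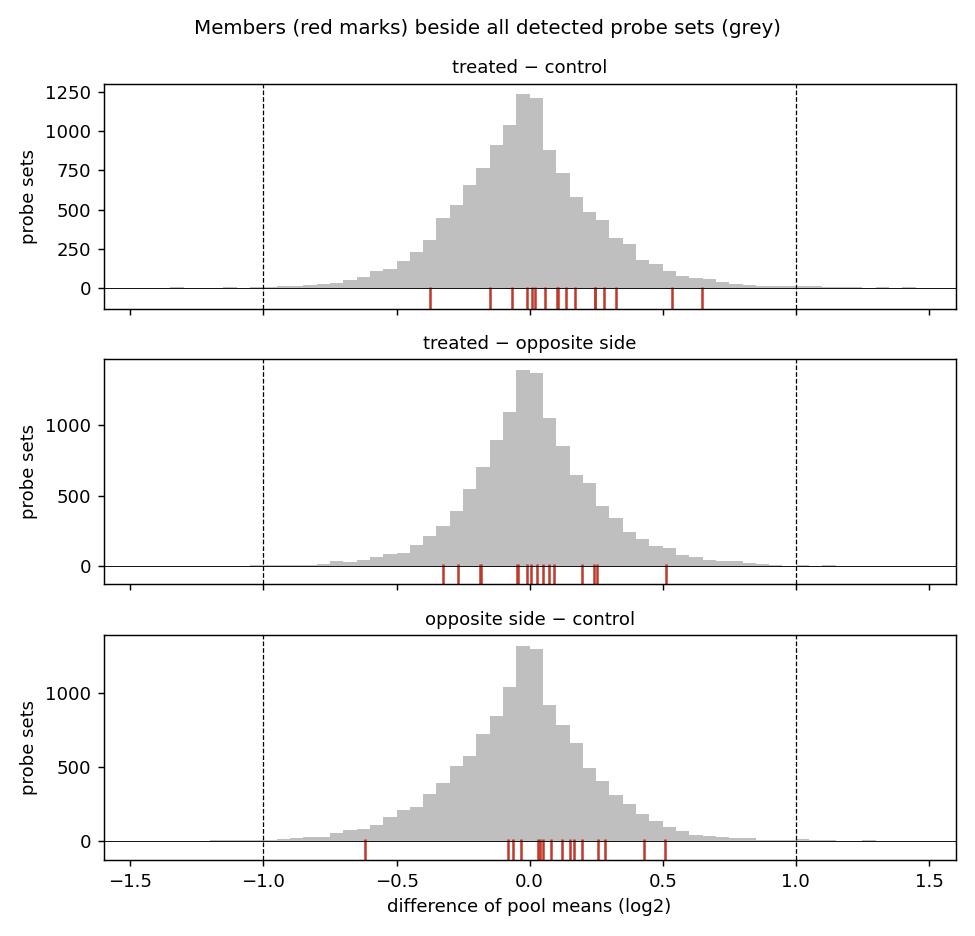
Histograms of the difference of pool means (log2) over all detected probe sets, in grey, with the detected probe sets of the 9 genes as red marks below the axis and the size rule of 1 as dashed lines. Marks run from -0.37 to 0.65 in treated minus control, from -0.32 to 0.51 in treated minus opposite side and from -0.62 to 0.51 in opposite side minus control, all inside the dashed lines. The axis is cut at 1.6 in each direction.

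Some facts of the whole series bear on these values. The heat shock genes checked the treatment label, with 7 of 7 detected genes past the size rule in treated minus control, against 0.731% of all genes. In treated minus opposite side 6 of 7 passed, against 0.34%. In opposite side minus control 1 of 7 passed, against 0.409%. This was CRYAB at 1.09, whose control values lay below 5 and which came to 1.13-fold against 5. There 6 of the 7 lay above control and 0 below, where 34.2% and 41.4% of all probe sets did. Of 12 colon epithelial markers 9 were detected, among them EPCAM, KRT20 and VIL1, while CDX1 lay at the floor. The 39 detected spike-in controls were higher by a median of 0.33 in treated minus opposite side and 0.10 in treated minus control. Setting the arrays to 1 spike-in median moved all differences by -0.23 in treated minus opposite side and by 0.24 in opposite side minus control, but by only 0.01 in treated minus control. This scaling equalised the median spike-in level of the arrays, not the median of the spike-in differences, so it need not remove those differences. Control probe sets along ACTB and GAPDH are read as measures of RNA integrity and labelling. The 5′ probe set of ACTB differed by 1.12 in treated minus control, -0.16 in treated minus opposite side and 1.27 in opposite side minus control, so it was higher in both pools from treated animals, while its 3′ probe set differed by 0.23, 0.08 and 0.15. The 5′ probe set of GAPDH differed by -0.46, -0.45 and -0.01 in the same comparisons.

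HMGB1 gave nearly level values on the probe sets that read highest. On 200680_x_at the arrays stood at 12.34 and 12.37 in the treated pool, 12.35 and 12.39 in the opposite-side pool and 12.34 and 12.34 in the control pool. The treated arrays overlapped those of both other pools, with differences of 0.02 against control and -0.01 against the opposite side. On 214938_x_at the values were 11.95 and 11.98 in treated, 11.95 and 11.93 in opposite-side and 11.86 and 11.86 in control tumours. On 200679_x_at they were 10.87 and 10.85 in treated, 10.75 and 10.79 in opposite-side and 10.78 and 10.82 in control tumours. Treated values lay above control by 0.11 and 0.06 on these 2 probe sets, and above the opposite side by 0.03 and 0.09, both of which turned negative under the spike-in scaling. The suffix _x_at marks probe sets whose probes may also bind other transcripts, and HMGB1 has many processed pseudogenes.

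The other HMGB1 probe sets differed more and did not follow each other. On 224731_at the arrays stood at 9.85 and 9.87 in the treated pool, 10.02 and 10.07 in the opposite-side pool and 9.58 and 9.49 in the control pool. Here no pools overlapped, the opposite side was highest and control lowest, with 0.33 for treated minus control, -0.18 for treated minus opposite side and 0.51 for opposite side minus control. On 224734_at the values were 6.35 and 6.40 in treated, 6.67 and 6.62 in opposite-side and 6.60 and 6.44 in control tumours. The treated pool was lowest there, with -0.15 for treated minus control and -0.27 for treated minus opposite side. Treated minus control thus had opposite signs on these 2 probe sets of 1 gene, and 4 of the 5 HMGB1 probe sets lay above control in the opposite-side pool, where 34.2% of all did. On 200680_x_at and 214938_x_at that gap was only 0.03 and 0.08, and the first turned to -0.03 on quantile normalization. The 5′ ACTB control was also higher on the opposite side than in control, and its part in the HMGB1 values was not tested.

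HMGB2, a paralogue most abundant in dividing cells, was highest in the opposite-side pool. On 208808_s_at the arrays stood at 10.36 and 10.43 in treated, 10.73 and 10.71 in opposite-side and 10.49 and 10.43 in control tumours. The difference was -0.32 for treated minus opposite side, -0.07 for treated minus control and 0.26 for opposite side minus control. Treated and control arrays nearly touched, at 10.43 in both pools. HMGB3, a paralogue linked in mouse to blood progenitors, was highest in the treated pool on 203744_at. Its values were 5.85 and 5.82 in treated, 5.60 and 5.59 in opposite-side and 5.53 and 5.58 in control tumours. Treated lay above both other pools, by 0.28 against control and 0.24 against the opposite side (0.02 under the spike-in scaling), while the other pools were 0.04 apart. The second HMGB3 probe set, 225601_at, read 3.64 to 3.80 on all arrays and its pools overlapped.

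MICA, the major histocompatibility complex class I chain-related ligand A, was level on its own probe set, 205904_at. The arrays stood at 6.43 and 6.43 in treated, 6.48 and 6.46 in opposite-side and 6.41 and 6.43 in control tumours. Treated and control arrays overlapped, with a difference of 0.01, and the opposite side lay above both by 0.04 to 0.05. The probe set shared with MICB, 205905_s_at, was highest in control, with 4.91 and 5.15 in treated, 4.83 and 4.74 in opposite-side and 5.57 and 5.24 in control tumours. Both pools from treated animals lay below control there, with -0.37 for treated minus control and -0.62 for opposite side minus control (-0.38 under the spike-in scaling). Taken against 5 the opposite-side pool was at least 1.32-fold lower than control, and the treated pool was 1.30-fold lower. The arrays of a pool differed by more on this probe set than on most others, with an SD of 0.170 in treated and 0.235 in control. MICB, the sister ligand, had no detected probe set of its own, so how the shared signal divides between MICA and MICB was not resolved.

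ULBP2, a UL16-binding protein and NKG2D ligand anchored to the membrane by lipid, was detected in the treated pool alone, so its differences are set against pools below the detection level. On 238542_at the arrays stood at 5.12 and 5.19 in treated, 4.70 and 4.59 in opposite-side and 4.59 and 4.43 in control tumours. The treated arrays lay above all 4 others and were the only ones to reach 5, with differences of 0.65 against control and 0.51 against the opposite side (0.29 under the spike-in scaling). Taken against 5 the treated pool was at least 1.11-fold higher than either. Its second probe set, 221291_at, lay below 5 with 3.79 and 3.90 in treated, 3.31 and 3.59 in opposite-side and 3.46 and 3.39 in control tumours. There too the treated arrays lay above the others, by 0.42 and 0.39. Opposite-side and control arrays overlapped or met on both probe sets. ULBP1, a related ligand, was at the floor.

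CD47 was higher in both pools from treated animals than in control on 4 of its 5 detected probe sets, where 34.1% of all probe sets lay above control in the treated pool and 34.2% in the opposite-side pool. The 5′ ACTB control was higher in the same pools, by 1.12 and 1.27, and its part in the CD47 values was not tested. On 211075_s_at the arrays stood at 8.16 and 8.19 in treated, 7.95 and 7.91 in opposite-side and 7.68 and 7.61 in control tumours. The 3 pools were in that order with no overlap, at 0.53 for treated minus control, 0.25 for treated minus opposite side (0.03 under the spike-in scaling) and 0.28 for opposite side minus control. On 226016_at the values were 8.36 and 8.39 in treated, 8.58 and 8.54 in opposite-side and 8.11 and 8.15 in control tumours. The opposite side was highest on this probe set, with treated at 0.25 above control and -0.19 relative to the opposite side.

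On the other CD47 probe sets the treated and opposite-side pools were closer to each other. On 213857_s_at the arrays stood at 10.24 and 10.27 in treated, 10.22 and 10.27 in opposite-side and 10.08 and 10.08 in control tumours. On 242974_at they stood at 6.49 and 6.58 in treated, 6.49 and 6.49 in opposite-side and 6.29 and 6.29 in control tumours. Treated lay above control by 0.17 and 0.25 and the opposite side by 0.17 and 0.20, while treated minus opposite side was 0.0050 and 0.05 and turned negative under the spike-in scaling. The fifth, 227259_at, ran from 5.92 to 6.17 with all pools overlapping. Of the 2 undetected CD47 probe sets, 213856_at read 3.87 and 3.94 in treated against 3.68 and 3.68 in control tumours, and 213055_at read 3.07 to 3.09 on all arrays.

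NT5E, which encodes the ecto-enzyme that turns AMP into adenosine, differed little on its detected probe sets. On 203939_at the arrays stood at 6.55 and 6.50 in treated, 6.39 and 6.27 in opposite-side and 6.41 and 6.37 in control tumours. The treated pool lay above both others, by 0.14 against control and 0.20 against the opposite side (-0.03 under the spike-in scaling), and the other pools overlapped. On 1553994_at the values were 5.48 and 5.28 in treated, 5.57 and 5.29 in opposite-side and 5.27 and 5.28 in control tumours. Here the gap between the arrays of 1 pool, with an SD of 0.14 in treated and 0.20 in opposite-side tumours, was wider than the differences between pools, which were 0.10 for treated minus control and -0.05 for treated minus opposite side. The undetected probe sets 1553995_a_at and 227486_at differed by 0.16 and -0.21 in treated minus control. In treated minus opposite side they differed by 0.40 and -0.44 without overlap, so their signs were opposite.

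**Figure D3:**
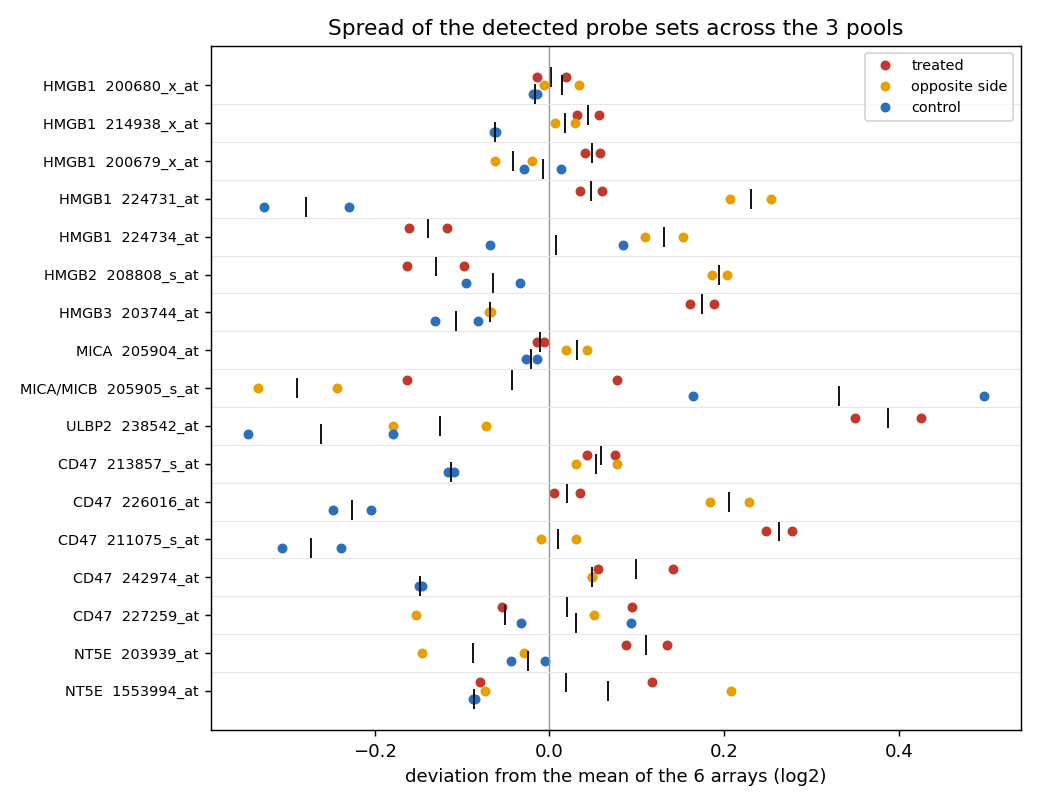
Deviation of each array from the mean of the 6 arrays (log2, horizontal axis) for the 17 detected probe sets, with treated arrays in red, opposite-side arrays in orange and control arrays in blue, and black ticks at the pool means. Treated arrays lie highest for ULBP2, HMGB3 and CD47 211075_s_at, opposite-side arrays for HMGB2, HMGB1 224731_at and CD47 226016_at, and control arrays for the MICA and MICB probe set.

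Set against array error alone, limma over the 6 arrays called few of these differences. With Benjamini-Hochberg adjustment over all probe sets it called 3 of 17 in treated minus control, where 18% of all detected probe sets were called. These were CD47 211075_s_at (0.53, adjusted p = 0.0161), HMGB3 (0.28, adjusted p = 0.0234) and CD47 226016_at (0.25, adjusted p = 0.0421). In treated minus opposite side it called 1 of 16, HMGB3 (adjusted p = 0.0388), against 11.4% of all. In opposite side minus control it called 3 of 16, against 16% of all, namely CD47 226016_at (adjusted p = 0.0199), HMGB1 224731_at (adjusted p = 0.0302) and CD47 211075_s_at (adjusted p = 0.0480). ULBP2 had adjusted p = 0.0533 in treated minus control. These p-values compare 3 pools against technical error and say nothing of animals. With the replicate block limma called 0 of the member probe sets in each comparison. In that fit 9 of 17 had an unadjusted p below 0.05 in treated minus control, where 5711 of all 12560 did. In treated minus opposite side 8 of 16 did, against 5090 of 12438.

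The genes around these ligands were read from 10 lists, each gene by whichever probe set read highest over the 6 arrays. Together they held 115 measured genes, of which 58 were detected. Of the 58, 2 passed the size rule in treated minus control (0.731% of all 7118 detected genes), 0 in treated minus opposite side (0.34% of 7062) and 1 in opposite side minus control (0.409% of 7082). The 2 were THBS1, which encodes thrombospondin, a secreted ligand of CD47, and the chaperone HSP90AA1, and the 1 was THBS1. Over the detected genes the median was 0.11, 0.05 and 0.06 in these comparisons, beside -0.02, 0.01 and -0.02 for all genes.

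In the CD47 list of 14 measured genes, 6 were detected in treated minus control and 1, THBS1, was past the rule. THBS1 stood at 6.50 and 6.31 in treated, 5.80 and 5.83 in opposite-side and 4.59 and 4.58 in control tumours. The pools did not overlap, and against 5 the treated pool was at least 2.64-fold and the opposite-side pool at least 1.76-fold higher than control. The opposite-side bound falls short of 2-fold, so that call rests on control values below the detection level. The 6 other THBS1 probe sets all lay below 5, so the difference rests on 201110_s_at alone. SIRPA, the CD47 receptor on phagocytes, was not detected, at 4.67 in treated and 4.51 in control tumours. PTPN11, a phosphatase recruited by SIRPA, differed by 0.53 in treated minus control and 0.37 in treated minus opposite side. On another detected PTPN11 probe set, 209896_s_at, these differences were 0.54 and only 0.009. CALR, which encodes calreticulin, a signal for uptake by phagocytes when exposed at the surface, differed by 0.20 in treated minus control and 0.05 in treated minus opposite side.

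Host and stromal marker lists are given beside THBS1 and CD47 211075_s_at, whose order only some of the lists had. Of 9 fibroblast and matrix markers 4 were detected (COL1A1, FN1, VIM and TAGLN), and the sum of the list on the linear scale was 798 to 810 on the treated, 672 to 687 on the opposite-side and 363 to 400 on the control arrays. Of 8 skeletal muscle markers 3 were detected, with sums of 215 to 225 on the treated, 153 on both opposite-side and 116 to 117 on the control arrays. In treated minus opposite side, 2 of the 4 detected fibroblast and matrix genes lay above and 1 below, where 36.7% and 34.9% of all probe sets did. The sums of both lists had the order of THBS1 and of CD47 211075_s_at, and their part in those differences was not tested. The leukocyte list kept that order too, with sums of 3639 to 3688 on the treated, 3421 to 3511 on the opposite-side and 3074 to 3183 on the control arrays. LYZ was its only detected gene, so these sums mostly describe LYZ and not leukocytes as a group. LYZ differed by 0.23 in treated minus control, 0.08 in treated minus opposite side and 0.15 in opposite side minus control. Other lists did not keep that order. Endothelium sums were highest in control, at 60.8 on the treated, 58.1 to 58.6 on the opposite-side and 61.2 to 62.6 on the control arrays. The adipose and epidermis sums were highest on the opposite side, at 446 to 447. They were 370 to 400 on the treated and 398 to 411 on the control arrays. None of the 6 natural killer cell markers was detected, with NKG7 at the floor, and of 7 leukocyte markers only LYZ was, with CD14, CD3E and CSF1R at the floor. The probes are designed for human transcripts, so mouse host cells would be measured only where their transcripts bind them.

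Among the other high mobility group genes 8 of 10 were detected and 0 passed the size rule in any comparison. HMGA2, an architectural chromatin factor typical of embryonic tissue and many tumours, stood at 6.78 and 6.77 in treated, 6.25 and 6.30 in opposite-side and 6.12 and 5.95 in control tumours. Its treated arrays lay above all others, by 0.74 against control and 0.50 against the opposite side. HMGA1, its paralogue, was lowest in the opposite-side pool, with 0.15 for treated minus control, 0.46 for treated minus opposite side and -0.31 for opposite side minus control. The list medians were 0.05, 0.03 and 0.02 in these comparisons.

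Of 14 genes for HMGB1 receptors and adaptors 3 were detected and 0 passed the rule, and the receptors AGER, TLR2 and TLR4 were not among the 3. MYD88, the adaptor below most toll-like receptors, stood at 7.04 and 7.10 in treated, 6.74 and 6.68 in opposite-side and 6.60 and 6.56 in control tumours. CXCR4, which binds CXCL12 in complex with HMGB1, stood at 8.93 and 9.07 in treated, 8.36 and 8.33 in opposite-side and 8.62 and 8.57 in control tumours. Both were highest in the treated pool, by 0.49 and 0.40 against control. Of 12 genes for HMGB1 export, oxidation and acetylation 9 were detected and 0 passed the rule, with PARP1, a DNA damage sensor, at 0.30 and the acetyltransferase KAT2A at -0.21 in treated minus control.

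None of the 3 other measured genes for NKG2D ligands or the receptor was detected. Of 6 genes for shedding of these ligands 5 were detected and 0 passed the rule, with a median of 0.43 in treated minus control and 0.13 in treated minus opposite side. ADAM9 stood at 9.15 and 9.19 in treated, 8.91 and 8.88 in opposite-side and 8.57 and 8.58 in control tumours. ADAM10, a sheddase of MICA, stood at 8.44 and 8.50 in treated, 8.40 and 8.44 in opposite-side and 8.02 and 8.06 in control tumours. The pools of both genes were in the same order without overlap, with treated minus control at 0.59 for ADAM9 and at 0.43 for ADAM10. For ADAM10 the treated and opposite-side arrays nearly touched, at 8.44 in both pools.

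Of 19 other ligands of natural killer and T cell receptors 9 were detected and 0 passed the rule, with a median of -0.01 in treated minus control. PVR, which is bound by DNAM-1 and TIGIT, lay above control by 0.50 and above the opposite side by 0.48 in the treated pool. NCR3LG1, the B7-H6 ligand of NKp30, was lower in both pools from treated animals, with -0.44 for treated minus control and -0.47 for opposite side minus control. HLA-E, which engages the inhibitory receptor NKG2A, was lower in the treated pool, with -0.35 for treated minus control. In the adenosine list 7 of 19 genes were detected and 0 passed the rule, with a median of -0.14 in treated minus control. DPP4, which anchors adenosine deaminase at the surface, differed by -0.38 in treated minus control, and the nucleoside transporter SLC29A2 by -0.68 in opposite side minus control. The other detected DPP4 probe sets, 211478_s_at and 203716_s_at, gave -0.84 and -0.16 in treated minus control.

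In the list of danger signals 10 of 17 genes were detected, and 1 passed the rule, HSP90AA1, in treated minus control. It stood at 13.19 and 13.24 in treated, 12.41 and 12.41 in opposite-side and 12.11 and 12.15 in control tumours, with differences of 1.09 for treated minus control and 0.80 for treated minus opposite side. ANXA1, a signal that guides dendritic cells to dying cells, stood at 9.72 and 9.75 in treated, 9.53 and 9.52 in opposite-side and 8.76 and 8.80 in control tumours, which is 0.95 for treated minus control and just inside the rule. HSPA5, an endoplasmic reticulum chaperone, and PANX1, a channel for ATP release, differed by 0.57 and 0.58 in treated minus control. Other probe sets of both genes differed less in that comparison. HSPA5 230031_at, also detected, differed by 0.17, and PANX1 204715_at, which did not reach 5, by 0.04. The complement regulators CD55 and CD59 differed by 0.52 and 0.60, and CD46 by 0.11.

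HSP70, a danger signal when it leaves the cell, passed the size rule on its shared probe sets. HSPA1A and HSPA1B share their probe sets, so they are named together. On 200800_s_at, which also names HSPA1L, the arrays stood at 12.29 and 12.27 in treated, 10.21 and 10.22 in opposite-side and 10.22 and 10.22 in control tumours. The difference was 2.06 for treated minus control and -0.0030 for opposite side minus control.

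**Figure D4:**
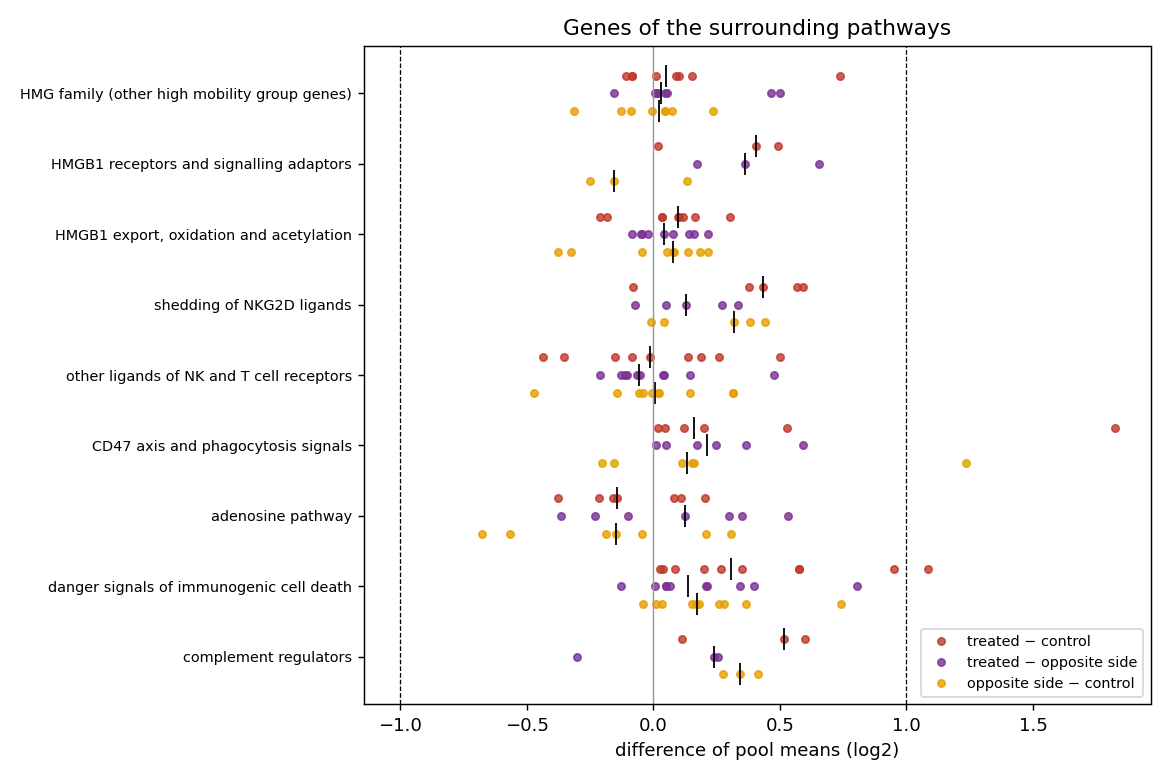
Difference of pool means (log2, horizontal axis) of each detected gene in the surrounding gene lists for treated minus control, treated minus opposite side and opposite side minus control, with black bars at the list medians and dashed lines at the size rule of 1. THBS1 at 1.82 and HSP90AA1 at 1.09 lie past the line in treated minus control, and THBS1 at 1.23 in opposite side minus control, with the control values of THBS1 below the detection level.

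Genes with the most similar profile were sought for HMGB2 and ULBP2, whose leading probe sets reached 5 and whose pool means spanned at least 0.3. Likeness was the Euclidean distance between profiles over the 6 arrays, each centred on its mean, among 7266 genes. For HMGB2 the nearest were UCHL5 (distance 0.0496), INPP5F (0.0627) and XRCC5 (0.0718). UCHL5 averaged 5.47 in treated, 5.81 in opposite-side and 5.50 in control tumours, so it too was highest on the opposite side. For ULBP2 they were TPM4 (0.0998), FBXL14 (0.111) and ZNF106 (0.121). ULBP2 qualified through the treated pool alone, and its other 4 arrays lay below the detection level, so these distances rest partly on undetected values. TPM4 averaged 6.16 in treated, 5.66 in opposite-side and 5.57 in control tumours, so it was highest in the treated pool. With 3 pools many genes share an order, and nothing on shared function follows from these distances.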

How the data were processed

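RNA from 3 pools was hybridised to 6 human expression arrays, 2 technical arrays per pool. Values were deposited on a log2 scale, and per the submitters' processing notes they were made with GCRMA, for which no version is given. Genome build and annotation version are not given in the sources used here. The platform annotation named 1 gene for 41097 probe sets, several for 1801 and none for 11777. The 9 genes, the gene lists and the marker lists were chosen with earlier results of these data known.

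Pool means of the 2 arrays were subtracted (Python 3.11.15, pandas 2.3.3, numpy 2.4.6). The size rule required a gap of at least 1 between means, the same sign in each of the 4 array pairs, and 5 or more on both arrays of whichever pool was higher. Spike-in and other control probe sets stayed out of all counts. No test between conditions is possible with 1 pool per group, and p-values of limma 3.58.1 (R 4.3.3, Benjamini-Hochberg over all probe sets) measure array error only. Precision is limited by the number of arrays, which is 2 per pool. Within a pool the arrays had a median absolute difference of 0.048 to 0.057.

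All probe sets of the 9 genes are named. From each gene list, genes past the rule and up to 3 with the largest difference per comparison could be named, and for each member with a clear range the 3 genes most like it. Alternatives were the level of 5, the minimum difference, the agreement in sign, the linear mean, 3 other scalings, 3 choices of probe sets, each array left out, and limma with and without the replicate number as a block. Deviations of arrays with the same number did not move together (correlations of -0.0044 to 0.0166 over 12287 probe sets). The calling and limma steps were tested on simulated data.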

Additional observations from a re-analysis of the deposited data

How the results depend on the processing

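With any 1 array left out, 0 member probe sets passed the size rule, and counts over all probe sets were 133 to 135 for treated minus control (129 with all arrays), 55 to 65 for treated minus opposite side (57) and 74 to 81 for opposite side minus control (75). With 1 array left out the member medians were 0.1055 to 0.1555, 0.0102 to 0.05 and 0.0588 to 0.1173. In the order treated minus control, treated minus opposite side and opposite side minus control, a minimum of 0.5 gave 2, 1 and 2 member probe sets and 1033, 796 and 957 in all. A minimum of 1.5 gave 39, 19 and 6 in all. No minimum gave 14, 12 and 13 members and 9453, 8906 and 9465 in all. limma gave 3, 1 and 3 members and 2264, 1422 and 2004 in all. With the replicate block, limma gave 0, 0 and 0 members and 338, 77 and 183 in all. The replicate numbers pair no samples by the labels. With 1 probe set per gene the counts over all were 52, 24 and 29 and the member medians 0.135, 0.005 and 0.0453. Without probe sets ending in _x_at or _s_at, treated minus control gave 79 in all and a member median of 0.1905, and treated minus opposite side 31 and 0.004. Probe sets of 1 gene gave 36 in all for treated minus opposite side. A level of 6 gave 39 in all for opposite side minus control and a member median of 0.005 for treated minus opposite side. Equal array medians gave member medians of 0.001 for treated minus opposite side and 0.1357 for opposite side minus control, and repeated quantile normalization 0.141 for treated minus control. The spike-in scaling gave 86 in all (29 higher, 57 lower, against 44 and 13 as deposited) and a member median of -0.2103 for treated minus opposite side, and 0.3378 for opposite side minus control (93 higher and 5 lower in all, against 41 and 34). It turned 6 treated minus opposite side values negative, 3 of CD47, 2 of HMGB1 and 1 of NT5E. It turned 3 opposite side minus control values positive, of HMGB1 200679_x_at, CD47 227259_at and NT5E 203939_at. The cause was not tested. Of 49 single member differences 36 kept their sign under the linear mean, the 3 other scalings and each array left out, and 13 did not. Signals below 5 limit MICB, ULBP1 and the opposite-side and control levels of ULBP2.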

Other observations

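Transcripts that neighbour or derive from the 9 genes lay below 5 on all 6 arrays. The HMGB3 pseudogene HMGB3P1 averaged 2.53 in treated, 2.72 in opposite-side and 2.69 in control tumours. MICA-AS1, annotated antisense to MICA, averaged 2.88 in treated, 3.16 in opposite-side and 3.26 in control tumours, and MICB-DT lay at 2.37 on all arrays. A second HMGA2 probe set, 1567224_at, differed by 0.69 for treated minus control, as the leading one did with 0.74, but by 0.10 for treated minus opposite side, against 0.50 on the leading one.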
